A study of Mus musculus with 16 samples.

Results

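The genes described here are 43 mouse genes of the TGF-beta, BMP, Wnt and Notch signalling pathways, named one by one and read across 8 lists of THOC5-associated RNA peaks. A gene counted as bound in a list if the deposited annotation placed at least 1 peak of that list in its exons, introns, UTRs, transcript end or non-coding exons. On this rule 21 of the 43 genes were bound in at least 1 list, out of 4051 genes bound in the series. The RNA was pulled down with THOC5 out of vascular smooth muscle cells, the contractile cells of the artery wall, taken from mice as primary cultures. THOC5 belongs to the THO complex, which couples transcription to the export of mRNA from the nucleus. The 4 conditions were osteogenic medium with THOC5 overexpression (THOC5 OE), osteogenic medium with GFP overexpression (GFP OE), osteogenic medium alone (Pi) and growth medium (Ctrl), with 2 lists each. The labels give a THOC5 overexpression genotype to THOC5 OE cells and WT to the others, GFP OE cells included. The study set THOC5 binding with osteogenic medium beside binding without it. Overexpression of THOC5 was set against overexpression of GFP in the same medium.

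Ligands of the TGF-beta and BMP family bind paired serine/threonine kinase receptors, which phosphorylate Smad proteins that then act as transcription factors with Smad4. Wnt ligands bind Frizzled receptors, and in the canonical branch this frees beta-catenin from a destruction complex built on Axin and Apc so that it can act with Tcf and Lef factors; a second branch passes through Dishevelled and Daam proteins to the cytoskeleton. Notch receptors are activated by Jagged or Delta ligands on a neighbouring cell, and their cleaved intracellular domain works in the nucleus with Mastermind-like coactivators. In the artery wall these pathways are known regulators of smooth muscle identity and of the shift to bone-like cells in calcification.

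Between 2572 and 4795 peaks made up a list, on 1231 to 2093 bound genes, and the number of lists, 2 per condition, limits the precision of every comparison. Scores are the authors' own, on a scale not given in the sources used here, so each peak is described by its percentile within its list, where 100 is the highest score. Ctrl replicate 2 was the longest list and Ctrl replicate 1, with 2603 peaks, among the shortest. Thoc5 itself, the overexpressed gene, had 1 peak in Ctrl replicate 2 and 0 in each other list, and the lists give no level of the construct. Smooth muscle markers carried peaks in 5 of 10 cases, with Mylk in all 8 lists, Acta2 in 3, Smtn in 2 and Tagln and Lmod1 in 1 each. Endothelial markers carried peaks in 0 of 7 cases, fibroblast markers in 1 of 6 (Pdgfra) and leukocyte markers in 1 of 6 (Csf1r). A peak shows presence in a list and not the level of a transcript, and a missing peak does not show absence of binding. Nothing in the labels says that replicates are separate cultures, so permutation p-values measure the spread between these samples only. With 2 lists against 2, the smallest p that an exact permutation test can give is 0.333, so no difference between conditions could pass 0.05.

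Few sequences bear on these results. The RefSeq promoter windows of build GRCm38.p6, from 250 bases before to 50 after a gene's start, were read beside peaks at the 5′ ends of Maml2, Daam1, Notch2, Jag1 and Tcf7l1. For Maml2 the 30 bases shown lie under the peaks of 4 lists. For the others the window stops short of the peaks, and the 30 bases shown are the window's end nearest to them, on the gene's strand. Capitals mark CG dinucleotides.
Maml2, chr9:13297731-13297760, plus strand: tgtgtttacaaagtacctagaggctcttgt
Daam1, chr12:71831088-71831117, plus strand: gtcacctgCGagttggtaacctaCGagCGg
Notch2, chr3:98013558-98013587, plus strand: ctggctgCGCGgagtgcaggggCGgCGcag
Jag1, chr2:137116471-137116500, minus strand: CGcctcaaagaagCGatcagaataataaaa
Tcf7l1, chr6:72788996-72789025, minus strand: agggaggggCGcCGggcCGggccaggcagg

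The Maml2 stretch holds 0 CG dinucleotides and its whole 300-base window 2, with a GC content of 48.0%. Of 32851 mouse promoter windows of that length, 68.0% have at least that GC content. The Notch2 window has 41 CG dinucleotides, a count that 3.46% of windows reach, and the Tcf7l1 window has 34. The Jag1 window has 22 and the Daam1 window 13. The nearest peak edge lies 109 bases past the gene's start for Daam1, 116 for Notch2, 148 for Jag1 and 180 for Tcf7l1. The deposited annotation marks the peaks of Daam1, Notch2 and Jag1 there as CpG islands in intron 1. These letters describe the windows only.

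All 7 Notch genes carried a peak in at least 1 list, against 9 of 18 Wnt genes and 5 of 18 TGF-beta and BMP genes. These genes were picked by name with earlier results known, and among 222 further genes of the pathways the shares with a peak were 33.9% for Notch, 33.0% for Wnt and 27.0% for TGF-beta and BMP. The 43 genes together held 101 peaks, 67 on Wnt genes, 27 on Notch genes and 7 on TGF-beta and BMP genes. The kinase gene Tnik alone held 35 of the 67 Wnt peaks. No gene of the 43, and so 0 of the 21 bound, had a peak in all 8 lists, beside 400 of the 4051 bound genes of the series (9.87%). Daam1 came closest with 7 lists, followed by Tnik and Maml2 with 6 each. In between, 11 genes were bound in 2 to 5 lists, and 7 were bound in a single list (33.3% of the 21, beside 37.2% of all bound genes).

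**Figure D1:**
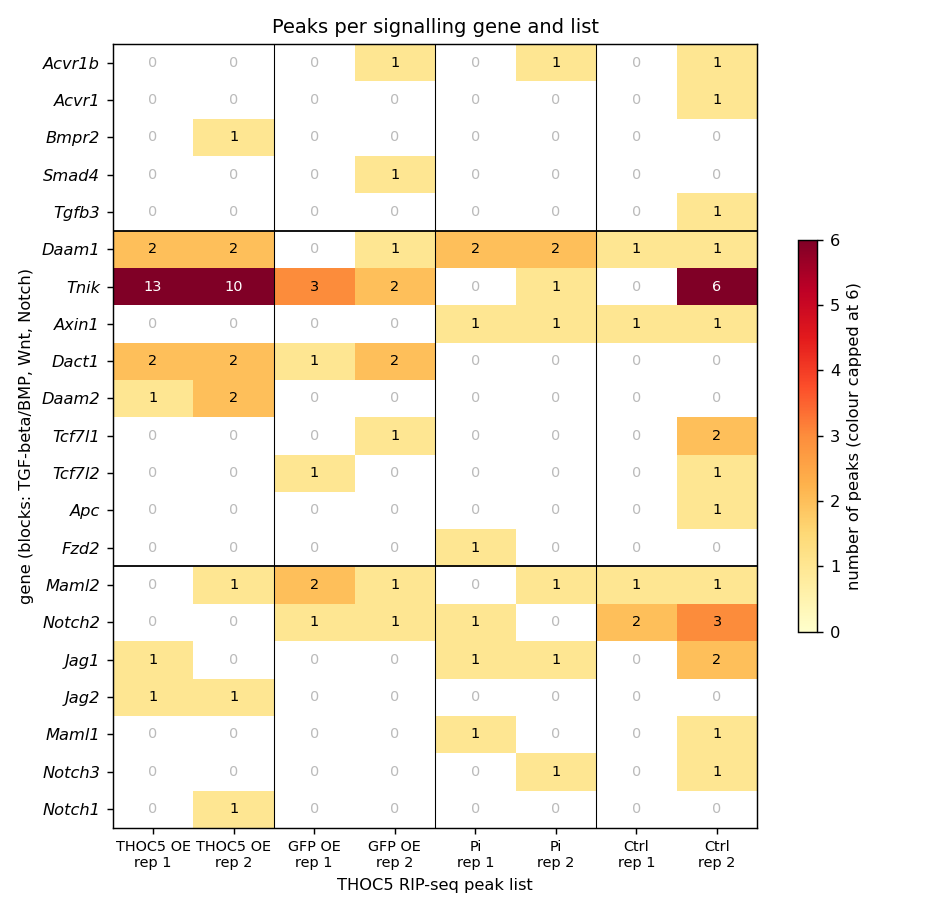
Number of THOC5 RIP-seq peaks (cell value and colour) on each of the 21 bound signalling genes (rows, in blocks of TGF-beta and BMP, Wnt and Notch genes) in each of the 8 lists (columns). Tnik stands out with 13 and 10 peaks in the THOC5 OE lists, while no row is filled in all 8 columns.

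The share of these genes with a peak, 48.8%, compares with 18.0% of all 21900 RefSeq protein-coding genes. The signalling genes were picked by name with earlier results of these data known. The 18.0% counts every protein-coding gene, since expression in these cells was not used. Among further genes of the pathways, also chosen with earlier results known, the shares were below 48.8%. They were 33.9% for Notch, 33.0% for Wnt and 27.0% for TGF-beta and BMP. Length also differs between bound genes and genes without a peak. The median span is 69002 bp for the 21 bound genes and 50201.5 bp for the 22 without a peak, beside 17146 bp for all protein-coding genes and 47974 bp for those bound. The part of length in the share of bound genes was not tested. Of the 101 peaks, 52 (51.5%) have a different gene as the nearest one in the deposited annotation, against 38.4% of all gene-assigned peaks. Acvr1b, Apc, Axin1, Bmpr2, Daam2, Jag2 and Notch1 have every peak named for a neighbour that way.

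Peaks fell in introns in 56 of 101 cases (55.4%), against 58.5% of all 28000 gene-assigned peaks. Exons and UTRs held 43.6% of the peaks on these genes and 39.1% of all. The 3′ UTR held 11 peaks, 10.9% against 6.72% of all. Without Tnik, which had no 3′ UTR peak, the share was 16.7% of 66 peaks. Tnik was left out after its peaks were seen, and it stays in the share over all genes. The 3′ UTR peaks lay on Acvr1b, Dact1, Jag1, Jag2 and Tcf7l1. A site shared by lists counts once per list, and a single Dact1 place held 4 of the 11. Joined wherever they overlapped by at least 1 base, the 101 peaks made 57 places, of which 34 were found in a single list, 23 in at least 2 and 0 in all 8.

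In the TGF-beta and BMP pathway, receptors were bound in 3 of 8 cases, Smads in 1 of 7 and ligands in 1 of 3. Of these, Acvr1b alone, the activin type I receptor also called Alk4, was bound in more than 1 list. Its peaks lay in the 3′ UTR of exon 9 of 9 on chromosome 15 and had percentiles of 37.7 in GFP OE replicate 2, 49.8 in Pi replicate 2 and 42.8 in Ctrl replicate 2. The Pi and Ctrl peaks overlap at chr15:101212271-101213086, and the GFP OE peak lies upstream of them at chr15:101211016-101211545. No peak on Acvr1b was found in either THOC5 OE list or in replicate 1 of any condition. Each of the others had 1 peak in 1 list.

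Bmpr2, the BMP type II receptor, had its peak in intron 10 of 12 in THOC5 OE replicate 2 (percentile 26.5). Smad4, the common partner of receptor-activated Smads, had one in intron 7 of 9 in GFP OE replicate 2 (26.4). Acvr1, a BMP type I receptor, had one in intron 7 of 10 in Ctrl replicate 2 (25.7). The ligand gene Tgfb3 had one in intron 2 of 6 in the same list (16.1). All 4 sit in the lower part of their lists by score. The receptor genes Acvr2a, Bmpr1a, Tgfbr1, Tgfbr2 and Tgfbr3 had no peak in any list. Nor did Smad1, Smad2, Smad3, Smad5, Smad6 and Smad7, nor the ligand genes Tgfb1 and Tgfb2.

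Among Wnt receptors, Fzd2 was the 1 of 3 Frizzled genes bound, with an exon peak in Pi replicate 1 (percentile 9.51). Fzd1 and Fzd7 had none. All 3 Dishevelled genes, Dvl1, Dvl2 and Dvl3, which relay the signal from Frizzled, also lacked a peak. Of the destruction complex and its target, Axin1 and Apc were bound, and Axin2 and the beta-catenin gene Ctnnb1 were not. The transcription factor genes Tcf7l1 and Tcf7l2 were bound in 2 lists each, and Tcf7 and Lef1 in none.

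Axin1 encodes the scaffold of the destruction complex. It had 1 peak in each Pi list and 1 in each Ctrl list, and none in the 2 THOC5 OE and 2 GFP OE lists. The peaks of Pi replicate 1 (percentile 44.1), Pi replicate 2 (60.5) and Ctrl replicate 1 (35.7) overlap in intron 6 of 9 at chr17:26188017-26188579. The peak of Ctrl replicate 2 (18.7) lies elsewhere, in intron 2 of 9. So all 4 lists of cells without an overexpression construct had Axin1 and the 4 lists with one lacked it, a pattern that 28 of 4051 bound genes showed (0.691%) and that 1 of the 21 signalling genes showed. With lists cut to 2572 peaks, Axin1 lost its peak in Ctrl replicate 2 and with it the pattern.

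Dact1, a regulator of Dishevelled, showed the opposite layout. THOC5 OE lists held 2 peaks each on it, GFP OE lists 1 and 2, and the Pi and Ctrl lists 0. Its best peak reached percentiles of 19.0 and 24.4 with THOC5 overexpressed, against 26.4 and 34.4 with GFP. The peaks fall at 2 places in the last exon, exon 4 of 4, one coding (chr12:71317327-71318173) and one in the 3′ UTR (chr12:71318845-71319536). The 3′ UTR place was found in all 4 lists with a construct, and the coding place in 3. Over all bound genes, 44 of 4051 (1.09%) were bound in those 4 lists and in no other, and Dact1 was 1 of the 21. With lists cut to 2572 peaks, Dact1 was left in 1 list, GFP OE replicate 2. Construct and culture set cannot be told apart here, since the labels give no batch.

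Daam1 and Daam2 encode formins that link Dishevelled to actin. Daam1 had 2 and 2 peaks in the THOC5 OE lists, 0 and 1 in GFP OE, 2 and 2 in Pi, and 1 and 1 in Ctrl. With the same cut in length Daam1 kept 1 and 2 peaks in THOC5 OE against 0 and 1 in GFP OE, and these counts touch. A place in intron 13 of 25, chr12:71951364-71951923, was found in 7 lists, more than any other place on these genes. Its percentiles were 70.8 and 70.9 in THOC5 OE, 63.0 in GFP OE replicate 2, 61.2 and 61.2 in Pi, and 39.8 and 58.3 in Ctrl. The peaks of these lists sit almost on top of one another.

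The second Daam1 place is the CpG island at the start of intron 1, beyond the promoter stretch printed above. It carried peaks in both THOC5 OE lists (44.2 and 49.8) and in Pi replicate 1 (9.51), and none in GFP OE or Ctrl. Pi replicate 2 had its second peak in intron 2 instead (68.0). Counts of Daam1 peaks did not overlap between Pi, 2.0 ± 0 peaks, and Ctrl, 1.0 ± 0 (SD, n = 2 each, exact permutation p = 0.333). More peaks in each Pi list than in each Ctrl list were found for 4.11% of all 3384 genes bound there.

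Daam2 was bound in both THOC5 OE lists alone, with 1 and 2 peaks, and in 0 of the other 6. Its best percentiles were low, 5.71 and 7.72. The shared place lies in intron 13 of 25 at chr17:49479921-49480459, on a MER91A DNA repeat in the annotation. The extra peak of THOC5 OE replicate 2 is in intron 5. The nearest gene given for all 3 is Mocs1.

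Tcf7l1, a Tcf factor best known as a repressor, had 1 peak in GFP OE replicate 2 and 2 in Ctrl replicate 2. The peaks near its start, in exon 2 of 13, overlap between these lists (percentiles 22.1 and 36.4), and the other Ctrl peak lies in the 3′ UTR (38.0). Tcf7l2 had 1 peak in GFP OE replicate 1 (12.4) and 1 in Ctrl replicate 2 (24.5), both at chr19:55919024-55919461 in intron 10 of 14. The tumour suppressor gene Apc had an intron 14 peak in Ctrl replicate 2 (19.9). A further peak annotated to the Apc promoter, which the rule leaves out, was found in Pi replicate 1 (2.79).

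Tnik encodes a kinase that binds Tcf7l2 and phosphorylates it in Wnt-driven transcription. It had 13 and 10 peaks in the THOC5 OE lists, 3 and 2 in GFP OE, 0 and 1 in Pi, and 0 and 6 in Ctrl. The mean was 11.5 ± 2.12 peaks for THOC5 OE against 2.5 ± 0.707 for GFP OE (SD, n = 2 each), with an exact permutation p of 0.333, the smallest possible. The THOC5 OE counts lay above those of the other 6 lists, and of 2509 genes bound in THOC5 OE or GFP OE 2 differed by more than Tnik's 9 peaks in either direction. GFP OE averaged 2.5 ± 0.707 peaks against 0.5 ± 0.707 in Pi (p = 0.333, exact permutation test). Pi averaged 0.5 ± 0.707 against 3.0 ± 4.24 in Ctrl (exact p = 1), where replicate 2 alone had peaks.

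The Tnik peaks had low scores. The best reached percentiles of 45.4 and 44.3 in THOC5 OE, 3.88 and 17.4 in GFP OE, 7.12 in Pi replicate 2 and 10.9 in Ctrl replicate 2. The THOC5 OE lists are also longer, 4618 and 4240 peaks against 3711 and 2572 in GFP OE. With each list cut to its 2572 best peaks, the THOC5 OE lists kept 1 and 2 Tnik peaks, those of GFP OE 0 and 2, and the Pi and Ctrl lists 0. The mean difference between THOC5 OE and GFP OE then fell to 0.5 peaks (exact permutation p = 1).

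The 35 Tnik peaks form 17 places along the gene, chr3:28261901-28670585. Of these, 8 were found in both THOC5 OE lists and 4 of the 8 in no other list. A place near the start of intron 1, chr3:28263462-28264009, held the best peak of both THOC5 OE lists, of GFP OE replicate 2 and, tied with another, of Ctrl replicate 2. Another, in intron 21 of 32 at chr3:28630086-28630584, was found in THOC5 OE replicate 1, GFP OE replicate 1, Pi replicate 2 and Ctrl replicate 2. The other places spread over the 3′ portion of the gene. Exons held 6 of 13 and 5 of 10 peaks in the THOC5 OE lists, 1 of 3 and 0 of 2 in GFP OE, 0 of 1 in Pi replicate 2 and 1 of 6 in Ctrl replicate 2.

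**Figure D2:**
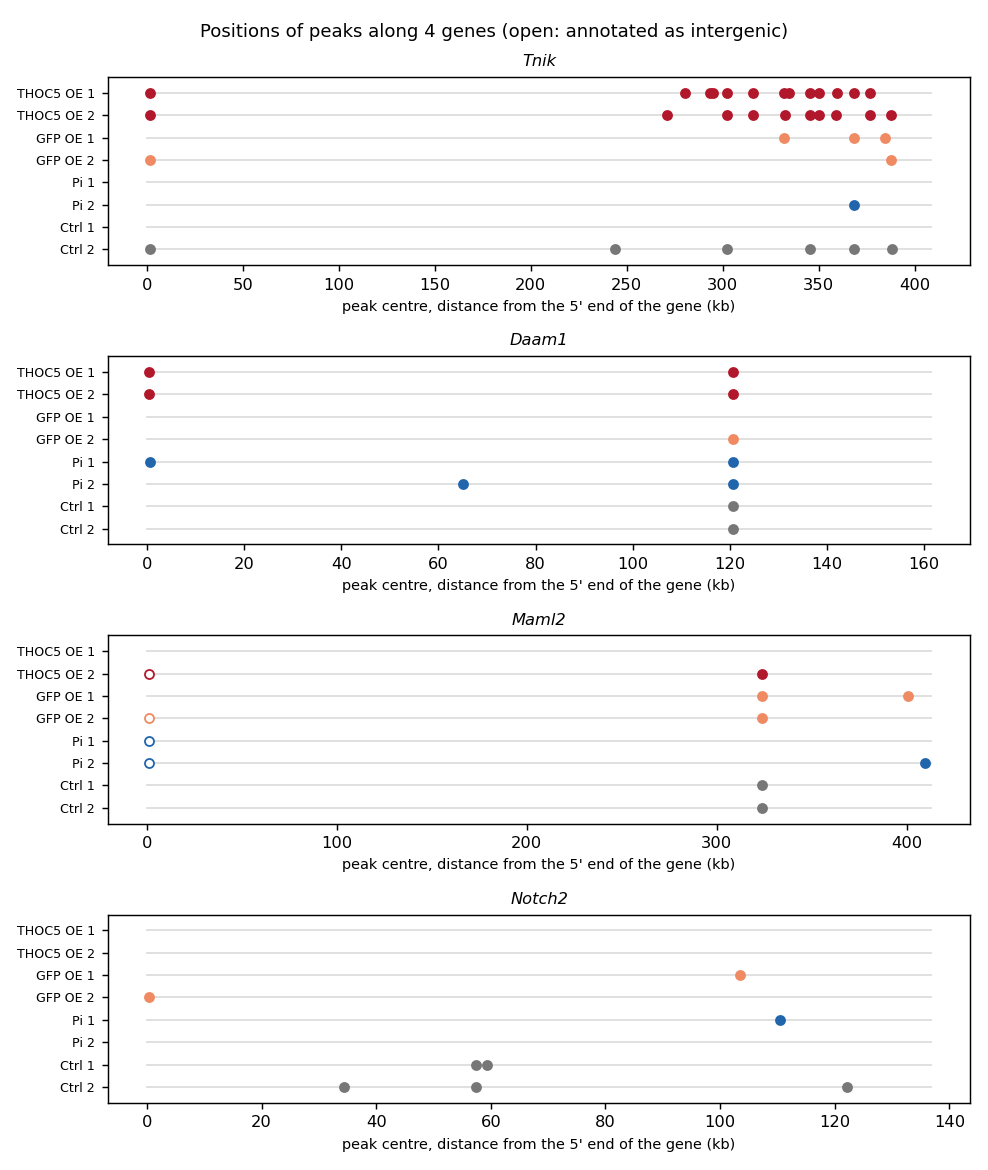
Position of each peak centre along Tnik, Daam1, Maml2 and Notch2, in kb from the 5′ end of the RefSeq gene (grey line), with 1 row per list. Filled circles are peaks counted for the gene, and open circles are the 4 peaks inside Maml2 that the annotation calls intergenic. The THOC5 OE rows of Tnik hold 13 and 10 peaks, Daam1 shows a column of 7 peaks in intron 13, and the Notch2 peaks are scattered.

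Notch genes had 27 peaks, 20 of them at or above percentile 50 of their list, with a median of 69.2. Wnt genes had 8 of 67 there (median 21.6, or 31.2 over the 32 peaks without Tnik), and TGF-beta and BMP genes 0 of 7 (median 26.5). A site shared by lists counts once per list, and a single Maml2 place gave 5 of the 27 Notch peaks (91.6 to 94.6). Notch2 held 8 and Maml2 7 of the 27. The Notch median thus rests on few genes, chosen with earlier results known. The 3 Notch receptor genes, both Jagged ligand genes and both Mastermind-like genes were bound. The receptor gene Notch1 had 1 peak, in intron 3 of 33 on a MIRb repeat, in THOC5 OE replicate 2 (percentile 64.9). Notch3, the receptor gene most associated with arterial smooth muscle, had 1 peak in Pi replicate 2, in the last exon (33 of 33; 85.4), and 1 in Ctrl replicate 2, in exon 5 (74.4). These lie at separate places, and the other 6 lists had none.

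Notch2 had 0 and 0 peaks in the THOC5 OE lists, 1 and 1 in GFP OE, 1 and 0 in Pi, and 2 and 3 in Ctrl. Ctrl averaged the most, and Pi had 0.5 ± 0.707 peaks against 2.5 ± 0.707 in Ctrl (SD, n = 2 each, exact permutation p = 0.333). The 8 peaks form 7 places, and the one shared by 2 lists is exon 3 of 34, chr3:98070782-98071227, in both Ctrl lists (69.2 and 81.7). Ctrl replicate 1 had a further peak in exon 4 (75.3). Ctrl replicate 2 had further peaks in exon 25 (79.9) and intron 2 (21.1). All 4 exon peaks of Notch2 were in Ctrl. The GFP OE peaks lay in intron 16 in replicate 1 (74.5) and in the CpG island of intron 1 in replicate 2 (20.2), and the Pi peak in intron 20 (66.9).

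Of the ligand genes, Jag1 had 1 and 0 peaks in the THOC5 OE lists, 0 and 0 in GFP OE, 1 and 1 in Pi, and 0 and 2 in Ctrl. The 3′ UTR of exon 26 of 26, chr2:137082609-137083098, carried the peaks of Pi replicate 2 (61.8) and Ctrl replicate 2 (63.2). The CpG island of intron 1, chr2:137115614-137116372, carried those of THOC5 OE replicate 1 (37.4) and Pi replicate 1 (28.8). The 2 Pi lists thus shared the gene and not the place. Jag2 had 1 peak in each THOC5 OE list and 0 in the other 6, at the transcript end in replicate 1 (35.2) and in the 3′ UTR in replicate 2 (37.3). Those peaks do not overlap, and Mir6941 is the nearest gene given for both.

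The coactivator gene Maml1 had exon 2 peaks at separate places in Pi replicate 1 (73.7) and Ctrl replicate 2 (67.6). Maml2 held the peak with the highest percentile on the 43 genes, 94.6 in Ctrl replicate 2. It had 0 and 1 peaks in the THOC5 OE lists, 2 and 1 in GFP OE, 0 and 1 in Pi, and 1 and 1 in Ctrl. A place at chr9:13620161-13620847, in exon 1 of 4 of the annotated transcript, was found in 5 lists, with percentiles of 92.8 in THOC5 OE replicate 2, 94.0 and 91.9 in GFP OE, and 91.6 and 94.6 in Ctrl. It was absent from both Pi lists and from THOC5 OE replicate 1. Pi replicate 2 had a peak in exon 4 of 4 instead (82.3), and GFP OE replicate 1 a second one in intron 2 (52.9).

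The Maml2 counts depend on the annotation used. RefSeq gives a start of the gene at position 13297958 of chromosome 9, at the window whose stretch is printed above, while the annotated exon 1 lies far downstream. Peaks at that 5′ start, within chr9:13297207-13298159, are annotated as intergenic and so are not in the counts. They were found in THOC5 OE replicate 2 (95.5), GFP OE replicate 2 (96.3), Pi replicate 1 (96.8) and Pi replicate 2 (96.0), and in none of the other lists. Counting them would bring Maml2 to 7 lists.

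**Figure D3:**
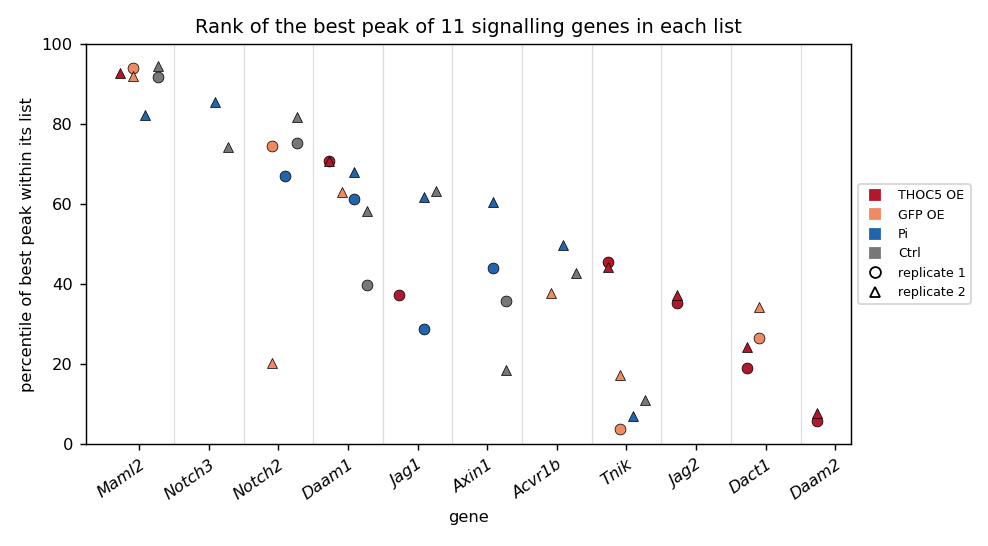
Percentile of the best peak of each gene within its list (100 is the highest score) for 11 genes, coloured by condition, with circles for replicate 1 and triangles for replicate 2; lists without a peak show no symbol. Maml2 sits between 82.3 and 94.6, and Daam2 at 5.71 and 7.72.

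Osteogenic medium was compared with growth medium without any construct. A gene is called Pi-only here if each Pi list had a peak on it and no Ctrl list had one, and the other comparisons use the same wording. Of 15 signalling genes bound in these 4 lists, 0 were Pi-only, where 3.25% of 3384 genes were. Likewise 0 of 15 were Ctrl-only, against 3.63% of all genes. By number of peaks, Daam1 was the 1 gene of 15 with more peaks in each Pi list than in each Ctrl list (4.11% of all genes), and Notch2 the 1 gene with more in each Ctrl list than in each Pi list (6.71%). The signalling genes made up 0.378 ± 0.0164% of bound genes in Pi and 0.491 ± 0.252% in Ctrl (SD, n = 2 each). The difference was -0.113 percentage points (exact permutation p = 1). The Ctrl lists stood apart from each other, with 4 and 14 of these genes bound, and the Pi lists, with 6 and 7, fell between them. Without Ctrl replicate 2 the difference turned to 0.0652 percentage points, and without Ctrl replicate 1 there were 5 Ctrl-only signalling genes of 15, a rule on 1 Ctrl list that 21.2% of 3220 genes met.

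Overexpression of THOC5 was compared with that of GFP, both in osteogenic medium. Daam2 and Jag2 were THOC5 OE-only, 2 of 14 genes, where 6.34% of 2509 genes were. Notch2 was GFP OE-only, 1 of 14, against 1.2% of all. The THOC5 OE lists each had more peaks than each GFP OE list on Daam1, Daam2, Jag2 and Tnik, 4 of 14, beside 14.5% of all genes. The reverse held for Notch2 alone, 1 of 14, beside 1.63%. With lists cut to 2572 peaks, Daam2 and Jag2 lost every peak and Notch2 kept its call. Without THOC5 OE replicate 1 there were 4 THOC5 OE-only genes of 13, beside 19.2% of all 2256 genes. Without GFP OE replicate 1 there were 4 GFP OE-only genes of 13, beside 6.67% of 2280. Peaks on signalling genes numbered 20 and 20 in THOC5 OE against 8 and 10 in GFP OE (means 20.0 ± 0 against 9.0 ± 1.41, SD, n = 2 each, exact permutation p = 0.333). Gene-assigned peaks over all genes numbered 4434 and 4070 in THOC5 OE against 3610 and 2475 in GFP OE. By genes the shares were 0.419 ± 0.0778% in THOC5 OE and 0.501 ± 0.211% in GFP OE, a difference of -0.0817 percentage points (exact p = 1). Genes bound numbered 6 and 8 in THOC5 OE against 5 and 8 in GFP OE, and Tnik held 23 of the 40 peaks in THOC5 OE and 5 of the 18 in GFP OE.

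GFP overexpression was compared with osteogenic medium alone. Dact1 was GFP OE-only, 1 of 14, where 3.65% of 3065 genes were. Axin1 and Jag1 were Pi-only in this comparison, 2 of 14, against 6.49% of all. By number of peaks, Dact1 and Tnik had more in each GFP OE list, 2 of 14 beside 7.05%, and Axin1, Daam1 and Jag1 more in each Pi list, 3 of 14 beside 8.19%. The share of bound genes was 0.501 ± 0.211% in GFP OE and 0.378 ± 0.0164% in Pi (SD, n = 2 each), a difference of 0.123 percentage points (exact permutation p = 1). Without GFP OE replicate 2 that difference turned to -0.0264. Without GFP OE replicate 1, 3 of 13 genes were GFP OE-only, where 9.53% of 2803 genes were. Without Pi replicate 2, 3 of 13 were GFP OE-only (9.93% of 2426 genes) and 4 of 13 Pi-only (24.9%). The comparisons share lists: GFP OE stands in this and in the preceding one, and Pi in this and the one before that.

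**Figure D4:**
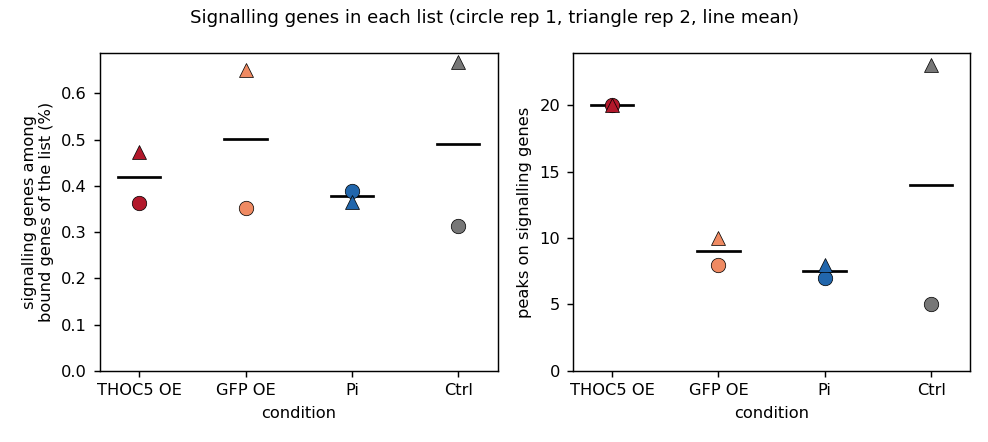
Signalling genes as a percentage of the bound genes of each list (left) and number of peaks on signalling genes in each list (right), by condition, with 1 symbol per replicate and a line at the mean. The 2 lists of Ctrl (0.669% and 0.3125%) and of GFP OE (0.650% and 0.351%) lie further apart than the condition means. Of these measures only the peak number separates THOC5 OE (20 and 20) from GFP OE (8 and 10). Gene-assigned peaks over all genes also separate these lists (4434 and 4070 against 3610 and 2475).

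Other genes of the same pathways were read from textbook lists chosen with earlier results of these data known. Of 63 further TGF-beta and BMP genes, 17 were bound in at least 1 list and 2 in all 8. These 2 were Bmp1, a protease that processes procollagen and frees BMPs from their antagonist, with 44 peaks and best percentiles of 98.1 to 99.4, and Ltbp2 (49.4 to 78.4), a matrix protein of the latent TGF-beta binding family. Of 103 further Wnt genes, 34 were bound and 7 were in all 8 lists. The deubiquitinase gene Usp34 had 70 peaks (87.7 to 98.9), and Chd8, a chromatin remodeller that binds beta-catenin, 24 (94.8 to 97.9). The coreceptor gene Lrp6 (60.3 to 86.1), the cadherin genes Cdh2 (72.5 to 89.7) and Celsr2 (34.4 to 60.6) and the ubiquitin ligase genes Cul1 (48.3 to 68.0) and Btrc (12.4 to 67.4) complete them.

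Of 56 further Notch genes, 19 were bound and 4 were in all 8 lists. Among them were the corepressor genes Ncor1 (26 peaks, 79.7 to 97.3) and Spen (33.5 to 76.1) and the acetyltransferase gene Crebbp (48.7 to 91.7), which other pathways share. Binding in all 8 lists was found in 13 of these 222 genes and in 0 of the 43. Of the 222, 17 TGF-beta and BMP, 34 Wnt and 19 Notch genes were bound in at least 1 list, and of the 43, 21 were. Over all bound genes, binding in all 8 lists was found in 400 of 4051 (9.87%), a share that leaves out genes without a peak. Both sets were chosen with earlier results known, and the difference between them was not tested.

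Between conditions, the further genes were counted by the same rules. For Pi against Ctrl, Lrrc32 and Tle3 were Pi-only, 2 of 58 genes bound in those lists (3.45%, beside 3.25% of all genes). Tgfbrap1, Zfyve16, Kremen1 and Mib1 were Ctrl-only, 4 of 58 (6.9%, beside 3.63%). For THOC5 OE against GFP OE, Plcb1 was THOC5 OE-only, 1 of 45 (2.22%, beside 6.34%), and 0 of 45 were GFP OE-only (beside 1.2%). For GFP OE against Pi, Zfyve16 was GFP OE-only, 1 of 52 (1.92%, beside 3.65%). Lrrc32, Tab1, Csnk1a1, Tle3 and Numbl were Pi-only there, 5 of 52 (9.62%, beside 6.49%). Zfyve16, the endosomal protein endofin that binds Smads, was bound in every list but those of Pi, at percentiles of 85.2 to 92.3. Tle3, a corepressor of Tcf factors, was bound in the 2 Pi lists alone (70.0 to 75.6), and so was Lrrc32 (12.0 to 19.7), which tethers latent TGF-beta. Zfyve16, Tle3 and Lrrc32 were picked out of the further genes by these layouts. The share of all bound genes with either layout was not counted. Csnk1a1, the kinase that primes beta-catenin for destruction, had a peak in each Pi and each Ctrl list (73.6 to 96.0) and in none with a construct, the layout seen for Axin1. Csnk1a1 was also picked out by its layout, which 28 of 4051 bound genes showed (0.691%).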

How the data were processed

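THOC5 RIP-seq was done on 8 of 16 samples and the other 8 are inputs, per the labels. The authors deposited 8 peak lists with a score per peak, which HOMER's annotatePeaks.pl had annotated on the mm10 build, per the file headers. FastQC, Bowtie2, MACS2 and SAMtools are named without role or version, per the submitters' processing notes. The sources used here do not give what called the peaks, its settings, any pooling or the use of inputs. Lists were joined to samples by the condition abbreviation and number in the file headers. Within a list each deposited score is the authors' own and was used only to rank and filter peaks.

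The gene of a peak was the RefSeq transcript named in its annotation (named for 28614 peaks and matched to GRCm38.p6 for 28582, 99.9%), in exons, introns, UTRs, transcript ends and non-coding exons, and gave 28000 of 28998 peaks a gene. Genes with a peak in each list of a condition and none of its comparator were counted over all genes, and shares were compared by exact two-sided permutation tests over lists, with Python 3.11.15, pandas 2.3.3 and numpy 2.4.6. Scripts were tested on simulated lists with known answers, which checks the code and not the reliability of calls in these data. Alternatives were only peaks at or above a list's median score, cutting lists to 2572 peaks, the deposited nearest gene, exons and UTRs only, promoter peaks, peak overlap of 50% or centres within 100 bp, leaving out each list, a replicate block and the share of peaks.

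The members and lists were chosen with earlier results of these data known. Every gene with a peak is named; values in every list are given for genes in at least 6 lists, genes set apart in a comparison, and receptors or ligands in at least 2. Input libraries, reads and expression were not used here.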

Additional observations from a re-analysis of the deposited data

Results flagged for a closer look

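Peaks lie inside 3 of the genes that the annotation gives to no exon, intron, UTR or transcript end of them. They stand outside the counts of the report. Maml2 has 4, 1 each in THOC5 OE replicate 2, GFP OE replicate 2, Pi replicate 1 and Pi replicate 2, annotated as intergenic at its 5′ start, at percentiles of 95.5 to 96.8. Notch1 has 2, in THOC5 OE replicate 1 (percentile 19.0) and GFP OE replicate 2 (3.46), annotated to the promoter of Gm35978. Apc has 1, in Pi replicate 1 (2.79), annotated to its own promoter. How often such peaks occur over all genes was not counted, and no difference between conditions was tested.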

How the results depend on the processing

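In all, 470 alternatives were computed. Results over the group of genes moved by under 1.5 times or kept their direction in 108, moved further in 35 and turned direction in 8. Values of single genes stayed within their error (the 95% binomial interval of a number of lists, 1 SD of a peak difference) in 271, moved further in 47 and turned in 1. That error is wide with 8 lists, so the 271 include Acvr1b at 1 list in place of 3 at the median score, Notch2 at 2 in place of 5 in exons and UTRs, and Tnik at 3 in place of 6 with lists cut. Every difference in shares has an exact permutation p of 0.333 or more, so none passed 0.05 under any setting. For Pi against Ctrl the difference in shares, -0.113 percentage points, turned to 0.0637 at or above the median score, 0.00563 with lists cut to 2572 peaks; leaving out a list gave -0.291 to 0.0652 (without Ctrl replicate 2). Ctrl-only genes, 0 in the report, became 2 (Maml2, Notch2) by nearest gene and 1 (Notch2) in exons and UTRs; leaving out a list gave 0 to 5 (1 without either Pi list, 5 without Ctrl replicate 1), and 0 to 1 for the Pi direction (1 without Pi replicate 2 or Ctrl replicate 2). For THOC5 OE against GFP OE the difference in shares, -0.0817, turned to 0.158 as a share of gene-assigned peaks; leaving out a list gave -0.231 to 0.0675 (without GFP OE replicate 2). The 2 genes of the THOC5 OE direction became 0 at the median score, with lists cut and in exons and UTRs, and 1 (Tgfb3) by nearest gene; the 1 gene of the GFP OE direction became 0 at the median score, by nearest gene and in exons and UTRs. Leaving out a list gave 2 to 4 (4 without THOC5 OE replicate 1) and 1 to 4 genes (2 without THOC5 OE replicate 2 or GFP OE replicate 2, 4 without GFP OE replicate 1). For GFP OE against Pi the difference in shares, 0.123, turned to -0.199 at the median score, -0.00372 with lists cut; leaving out a list gave -0.0264 (without GFP OE replicate 2) to 0.272. The 1 gene of the GFP OE direction became 0 at the median score and with lists cut and 2 (Dact1, Maml2) by nearest gene, and the 2 genes of the Pi direction became 0 at the median score and in exons and UTRs and 1 (Jag1) by nearest gene. Leaving out a list gave 2 to 3 (3 without GFP OE replicate 1 or Pi replicate 2) and 2 to 4 genes (4 without Pi replicate 2). Genes bound in at least 1 list, 21, became 9 at the median score and 11 in exons and UTRs, and 7 of the 21 lost every peak with lists cut. Genes and places in all lists left became 1 (Daam1) without GFP OE replicate 1, and stayed 0 without each other list. Places, 57, became 18 at the median score, and places in at least 2 lists, 23, became 4. The Tnik difference in mean peaks, Pi minus Ctrl, was -2.5, and leaving out a list gave -5.5 to 0.5 (without Ctrl replicate 2); that of THOC5 OE minus GFP OE was 9 and became 0.5 with lists cut, and that of GFP OE minus Pi was 2 and became 1. Over all genes, with lists cut, 56 were THOC5 OE-only (159 without the cut) and 51 GFP OE-only (30). Over all genes, leaving out a list gave shares of 3% to 31.5% for such calls, beside 1.2% to 6.49% with both lists of each condition. Causes of these changes were not tested. Lists with the same replicate number showed little correlation of deviations over genes (-0.0724 to 0.0588). Whether they share a culture or batch was not tested. The replicate block cannot change a mean difference, so the differences in shares stayed at -0.113, -0.0817 and 0.123 (exact sign permutation p = 1 each). The 108 results above include these. With 2 pairs the smallest p of that sign test is 0.5. Peaks annotated as intergenic, genes without Tnik and the Tnik, Daam1 and Notch2 differences were alternatives chosen after seeing the data; the first 2 changed no direction. Scores, and not reads, were available, so depth and transcript level were not corrected for.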
